A study of Mus musculus with 4 samples.

Results

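The guanylate-binding proteins (Gbp) are a family of large GTPases whose genes were followed here in mouse CD8+ T cells exposed to NaBu, commonly short for sodium butyrate, the salt of a short fatty acid and an inhibitor of histone deacetylases. The members are the 10 genes whose symbol in the deposited files is *Gbp2* to *Gbp11*, out of 17559 genes listed, and all 10 had counts in every library and passed the filter on low counts. They were chosen by symbol, but with earlier results of this same comparison known, so their differences between the groups are given as a description and no p-value is attached to them, except where a single library decides a call. All 4 libraries came from C57BL/6 mice carrying OT-I, a transgenic T cell receptor that recognises a peptide of ovalbumin, and from tissue labelled LN. The T cells were enriched by negative selection on magnetic beads to a purity above 95%. Stimulation lasted 2 d in wells coated with antibodies to CD3 (1 µg/ml) and CD28 (2 µg/ml), with IL-2 at 10 ng/ml, and the cells then rested 2 d in IL-2 alone. The 2 control libraries are labelled control, and the 2 NaBu libraries from cells given 1 mM for 12 h. The labels do not say whether the replicates were separate cultures or animals, so the spread between them may be technical.

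Guanylate-binding proteins belong to the dynamin superfamily and are among the genes most strongly induced by interferon gamma, in part through the transcription factor IRF1. The proteins bind and hydrolyse GTP, assemble into coats on pathogen-containing vacuoles and on bacteria in the cytosol, and help to break them open and to trigger inflammasomes. They are best known from macrophages, and lymphocytes express them too. In the mouse the genes stand in tandem clusters on chromosomes 3 and 5, and mice that lack the chromosome 3 cluster control the parasite *Toxoplasma gondii* poorly.

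The libraries held 19857701 to 20548571 expected counts, and the members held between 366 and 56233 of them each. The receptor genes that define the labelled cell type were abundant: *Cd3e*, *Cd3d*, *Cd3g*, *Cd8a* and *Cd8b1* summed to an FPKM of 1216 and 1178 in controls, against 1204 and 1209 in NaBu. FPKM is a fragment count scaled to transcript length and library size. Of these 5 genes 1 rose and 4 fell, where 34.5% of all tested genes were higher and 34.1% lower. *Trac*, also on the list of CD8+ T cell markers, had no values. Of 3 NK cell markers, *Eomes*, which activated CD8+ T cells also express, rose from a mean FPKM of 73.1 to 134, *Klrb1c* fell from 9.86 to 5.26 and *Ncr1* had at most 0.1. Of the 2 markers of CD4+ T cells, *Cd4* rose from 0.025 to 0.655 and *Zbtb7b* from 20.8 and 19.2 in the controls to 26.1 and 26.3 in NaBu. Of 4 endothelial and stromal markers, *Pecam1* fell from 21.4 to 16.6, *Pdgfrb* rose from 0.05 and 0.1 to 1.51 and 1.2, 16.4-fold, *Col1a1* rose from a mean of 0.075 to 0.54, 6.52-fold, and *Cdh5* had at most 0.01. The 3 B cell markers with values, of 5 listed, summed to 5.73 and 4.07 in the controls and 2.62 and 1.96 in NaBu.

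The transcript pool of the family was about 4 times as large in NaBu. The FPKM of the 10 members summed to 567 in control 1 and 638 in control 2, against 2771 in NaBu 1 and 2478 in NaBu 2. As a share of all expected counts, the members held 0.2165% (exact binomial 95% interval 0.2145 to 0.2186%) in control 1 and 0.2445% (0.2423 to 0.2466%) in control 2. In NaBu 1 the share was 1.004% (0.9999 to 1.009%) and in NaBu 2 it was 0.9008% (0.8966 to 0.9049%). These intervals cover counting error only, and both gaps between replicates exceed it. Taken as 1 row in the fit of all genes, the family's summed counts were 3.86-fold higher in NaBu, a log2 fold change of 1.95 ± 0.09 (SE, n = 2 per group, as for all fitted values here). Near-identical copies share reads, and these summed counts, unlike summed FPKM, do not depend on how the reads were divided between members. As these are bulk libraries, more cells with the transcripts and more transcript per cell cannot be told apart.

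Of the 10 members, 9 were higher in NaBu and none was lower at an adjusted p of 0.05 in edgeR's quasi-likelihood test over 12943 genes, in which 68.6% of all genes were called, 34.5% as higher and 34.1% as lower. Nothing is read from that count, since the members were proposed with this comparison known. With a change of more than 1.5-fold required, 8 members were higher, where the same holds for 17.1% of all genes tested. In 9 members both NaBu libraries lay above both controls, which was so for 48.0% of the tested genes. The median log2 fold change of the members was 1.25, with a range from 0.08 to 2.77, while the median of all tested genes was 0.0047.

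**Figure D1:**
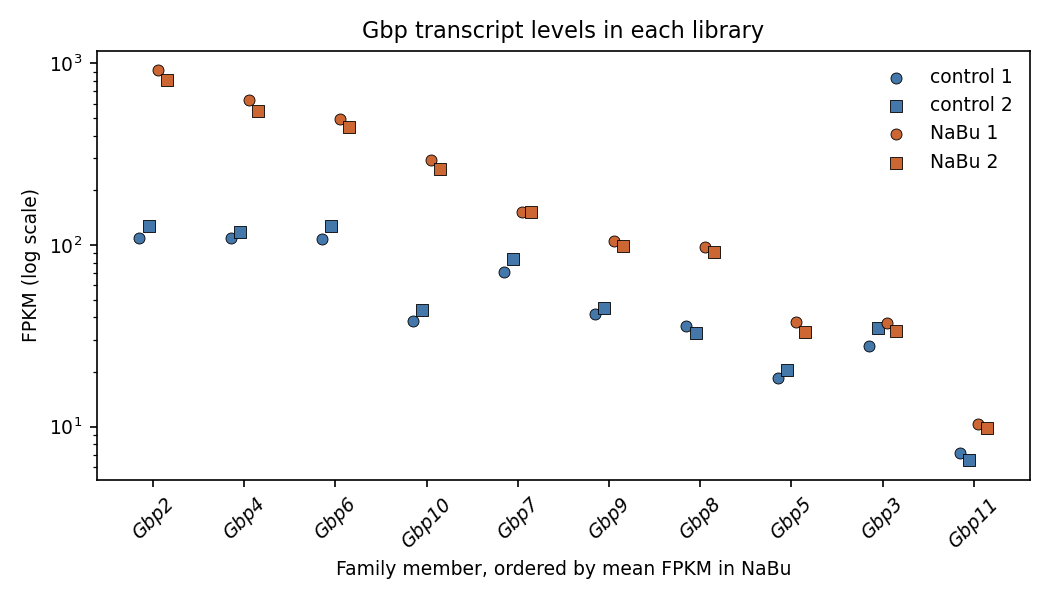
FPKM of each member (log axis) in the 4 libraries, with controls in blue and NaBu in orange, circles for replicate 1 and squares for replicate 2. Only the points of *Gbp3* overlap between the groups, and *Gbp2* has the highest values in NaBu, at 915 and 808.

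On chromosome 3 (positions are those of RefSeq on GRCm38.p6, the assembly called mm10), the members in genomic order are *Gbp5* (gene 229898, 142496934 to 142522344), *Gbp7* (gene 229900, 142530336 to 142550151), *Gbp3* (gene 55932, 142560016 to 142573213) and *Gbp2* (gene 14469, 142620663 to 142638008). Between *Gbp3* and *Gbp2* lies *Gbp2b* (gene 14468, 142594816 to 142619179), also called Gbp1, which is no member here and is described with them as the remaining gene of the cluster. RefSeq promoters were found for these 5 genes. The 200 bases before the start used for each promoter are printed, because the genes share a motif there and differ in their change. In *Gbp3* and *Gbp2b* that start lies past the first position given above for the gene, so the last printed bases fall within the gene. Capitals mark the interferon-stimulated response element, searched on both strands as GAAA, any 2 bases and GAAA over 250 bases before to 50 after the start. All are printed from the plus strand of GRCm38.p6, where the motif reads in reverse complement.
Gbp2, chr3:142620463-142620662: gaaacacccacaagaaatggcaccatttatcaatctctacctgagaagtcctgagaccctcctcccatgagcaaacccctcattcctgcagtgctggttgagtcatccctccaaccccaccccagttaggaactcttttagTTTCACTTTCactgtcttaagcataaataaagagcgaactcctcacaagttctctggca
Gbp7, chr3:142530136-142530335: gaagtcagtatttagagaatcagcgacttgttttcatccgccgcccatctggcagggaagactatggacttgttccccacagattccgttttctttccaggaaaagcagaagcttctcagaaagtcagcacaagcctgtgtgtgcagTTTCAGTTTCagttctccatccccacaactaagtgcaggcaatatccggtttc
Gbp5, chr3:142496734-142496933: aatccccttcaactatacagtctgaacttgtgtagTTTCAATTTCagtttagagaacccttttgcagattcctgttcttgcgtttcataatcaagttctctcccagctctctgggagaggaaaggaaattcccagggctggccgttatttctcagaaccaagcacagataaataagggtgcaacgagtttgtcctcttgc
Gbp3, chr3:142559844-142560043: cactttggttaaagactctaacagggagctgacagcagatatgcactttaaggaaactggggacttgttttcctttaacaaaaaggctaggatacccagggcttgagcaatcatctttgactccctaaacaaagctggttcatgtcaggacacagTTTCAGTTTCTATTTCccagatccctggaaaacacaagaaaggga
Gbp2b, chr3:142594647-142594846: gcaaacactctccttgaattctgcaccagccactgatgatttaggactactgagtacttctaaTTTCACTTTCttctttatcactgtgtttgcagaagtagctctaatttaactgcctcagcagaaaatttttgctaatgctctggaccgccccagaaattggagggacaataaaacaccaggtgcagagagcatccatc

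The element occurred in all 5 of these promoters, against 3.44% of the 32851 promoters of the table. Counted from the start, with negative positions before it, the match ran from -59 to -50 in *Gbp2*, from -53 to -44 in *Gbp7*, from -165 to -156 in *Gbp5* and from -137 to -128 in *Gbp2b*. *Gbp3* had 2 overlapping matches, from -45 to -36 and from -39 to -30, and a second promoter listed for it had 0. The letters read as the motif were GAAAGTGAAA in both *Gbp2* and *Gbp2b*, and GAAACTGAAA in *Gbp7* and in the first match of *Gbp3*. The gamma-activated site, searched as TTCNNNGAA, a palindrome that reads alike on both strands, occurred 2 times each in *Gbp5* and *Gbp7*, and 0 times in *Gbp2*, *Gbp3* and *Gbp2b*, against 8.3% of all promoters with at least 1 match. A match of letters is not a binding site, and promoters of *Gbp4*, *Gbp6*, *Gbp8*, *Gbp9*, *Gbp10* and *Gbp11* were not analysed here.

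*Gbp2*, whose protein carries a C-terminal lipid anchor and coats *Toxoplasma* vacuoles, reached an FPKM of 109.6 in control 1 and 127 in control 2, and of 915 in NaBu 1 and 808 in NaBu 2. Both NaBu libraries stood far above the controls, and the log2 fold change was 2.77 ± 0.09, a 6.81-fold rise. Of all tested genes, 4.28% had a larger log2 fold change. By FPKM it went from rank 653 and 539 among all genes in the controls to rank 88 and 98 in NaBu.

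*Gbp7*, reported to support oxidative and autophagic defence in macrophages, stood at FPKM 70.6 and 83.4 in controls 1 and 2, and at 152 and 151 in NaBu 1 and 2. The groups did not overlap, and the rise was 1.84-fold, with a log2 fold change of 0.88 ± 0.08. *Gbp5*, whose protein promotes assembly of the NLRP3 inflammasome, was lower in level, with 18.6 and 20.4 in the controls and 37.7 and 33.1 in NaBu. It rose 1.69-fold, or 0.76 ± 0.08 on the log2 scale, again with no overlap.

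*Gbp3*, which lies between *Gbp7* and *Gbp2b*, was the only member that did not pass. Its FPKM was 27.7 and 34.8 in the controls and 37.2 and 33.5 in NaBu, so the second control lay within the NaBu range. The log2 fold change was 0.08 ± 0.10. Its value rested on single libraries: it was -0.08 without control 1 and 0.25 without control 2, where the gene was called higher (edgeR adjusted p = 0.023, with the spread of the lone control taken from the NaBu group). Over the 14 alternatives its adjusted p ran from 0.023 to 1 and passed only without control 2.

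*Gbp2b* had 0 counts in both controls, which allows up to 3 counts in each, and 2.03 and 2.09 expected counts in the NaBu libraries. With values that low it did not enter the test and no fold is given. Its promoter carries the same letters of the response element as that of *Gbp2*, its neighbour, printed above.

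**Figure D2:**
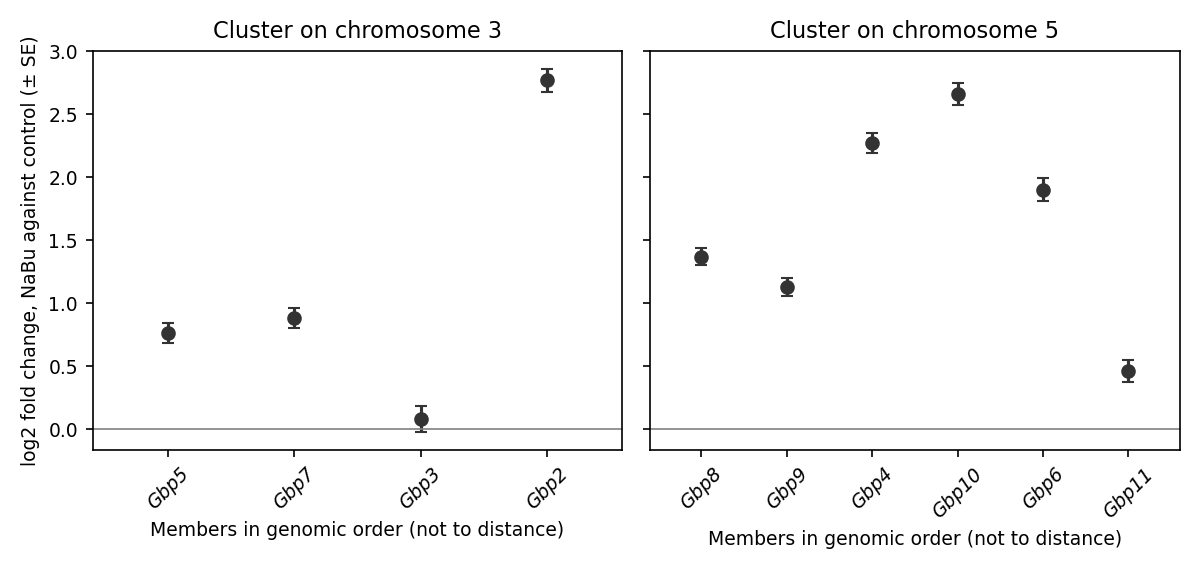
Log2 fold change of NaBu against control for the members in genomic order on chromosome 3 (left) and chromosome 5 (right), with bars of 1 SE (n = 2 per group). The smallest and largest changes are 0.08 for *Gbp3* and 2.77 for *Gbp2* on chromosome 3, and 0.46 for *Gbp11* and 2.66 for *Gbp10* on chromosome 5. The value of *Gbp10* rests on how reads were divided between it and *Gbp6*.

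On chromosome 5 the order is *Gbp8* (gene 76074, 105012513 to 105053609), *Gbp9* (gene 236573, 105076464 to 105110357), *Gbp4* (gene 17472, 105115767 to 105139586), *Gbp10* (gene 626578, 105215699 to 105239533), *Gbp6* (gene 100702, 105270702 to 105295871) and *Gbp11* (gene 634650, 105323026 to 105346476). RefSeq annotates the first 5 as protein-coding and *Gbp11* as a transcribed pseudogene. All 6 rose.

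*Gbp4*, whose protein has been reported to restrain IRF7-dependent interferon induction, stood at FPKM 109.7 and 117 in controls 1 and 2, and at 625 and 545 in NaBu 1 and 2. Its 56233 counts in NaBu 1 were the most of any member in any library, and it rose 4.83-fold (log2 fold change 2.27 ± 0.08). *Gbp10* stood at 38.3 and 43.8 in controls, against 294 and 262 in NaBu. Its rise of 6.33-fold, or 2.66 ± 0.09 on the log2 scale, was second to that of *Gbp2* among the members. That place rests on how reads were divided between it and *Gbp6*. *Gbp6* stood at 108 and 127 in controls, against 496 and 445 in NaBu, and rose 3.74-fold (log2 fold change 1.90 ± 0.09).

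*Gbp6* and *Gbp10* are close copies, so the division of reads between them is uncertain. Of all stretches of 50 bases in the *Gbp6* transcript, 62.3% also occur in that of *Gbp10*, and 45.8% of those of *Gbp10* occur in *Gbp6*. The *Gbp6* transcript compared has 2604 bases, shorter than the 4329 the deposited files use. With stretches of 100 bases the shares were 44.2% and 32.3%. Summed as 1 row, the pair was 4.32-fold higher in NaBu, with a log2 fold change of 2.11 ± 0.09, and its FPKM was 146 and 171 in the controls against 790.2 and 707 in NaBu. The summed counts do not depend on which copy the reads were given to, while the summed FPKM does, as the deposited lengths of the copies differ. Counted over any other family transcript, 70.1% of the 50-base stretches of *Gbp6* and 50.3% of those of *Gbp10* were shared, so some are shared outside the pair. By that measure sharing was lower elsewhere: 21.2% for *Gbp8*, 19.2% for *Gbp11*, 12.1% for *Gbp4* and 7.48% for *Gbp9*. It was 4.13% for *Gbp3*, 2.28% for *Gbp7*, 2.07% for *Gbp2* and 0 for *Gbp5*.

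The other members of the chromosome 5 cluster rose less. *Gbp8* stood at FPKM 35.7 and 32.9 in controls 1 and 2, and at 97.5 and 91.8 in NaBu 1 and 2, a 2.58-fold rise with a log2 fold change of 1.37 ± 0.07. *Gbp9* had 41.6 and 44.8 against 105 and 98.1, a 2.19-fold rise with a log2 fold change of 1.13 ± 0.07. *Gbp11*, the pseudogene at the end of the cluster, had the lowest level, with 7.18 and 6.54 in the controls and 10.3 and 9.86 in NaBu. Its rise of 1.38-fold, 0.46 ± 0.09 on the log2 scale, was below the 1.5-fold null of the stricter test, which it did not pass.

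Both clusters contributed, and the difference between them was not tested. The 4 members on chromosome 3 summed to an FPKM of 227 and 266 in controls, against 1143 and 1026 in NaBu, with a log2 fold change of their summed counts of 1.78 ± 0.09. The 6 on chromosome 5 summed to 341 and 372 in the controls and 1628 and 1452 in NaBu, with 2.04 ± 0.09. Chromosome 3 supplied 40.0% and 41.6% of the family's FPKM in the controls and 41.2% and 41.4% in NaBu, where the means differed by less than the controls did. By expected counts, which are not scaled to length, its part was 37.0% and 38.5% in the controls and 33.3% and 33.9% in NaBu, lower in both NaBu libraries.

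Within the pool the makeup shifted. In the controls *Gbp2*, *Gbp6* and *Gbp4* stood at nearly the same level, with mean FPKM of 118, 118 and 113 and overlapping ranges, and together with *Gbp10* made up 64.5% and 65.1% of the family's FPKM. In NaBu the same 4 genes made up 84.1% and 83.2% (by expected counts 82.8% and 81.6%, against 63.5% and 63.6% in the controls), and *Gbp2*, *Gbp4*, *Gbp6* and *Gbp10* followed in that order with no overlap between neighbours. These 4 were picked as the highest members in NaBu, so part of their larger share there follows from that choice. In the controls *Gbp7*, with a mean FPKM of 77.0, stood above *Gbp10*, with 41.0. *Gbp2* alone went from 19.3% and 19.9% of the family to 33.0% and 32.6%, and *Gbp10* from 6.75% and 6.86% to 10.6% in both NaBu libraries. The share of *Gbp10* rests on how reads were divided between it and *Gbp6*. *Gbp7* went the other way in share, from 12.4% and 13.1% to 5.5% and 6.1%, although its own level rose. Among the less abundant members, *Gbp9* and *Gbp10* overlapped in the controls, as did *Gbp8* and *Gbp3*, and *Gbp5* and *Gbp3* overlapped in NaBu.

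**Figure D3:**
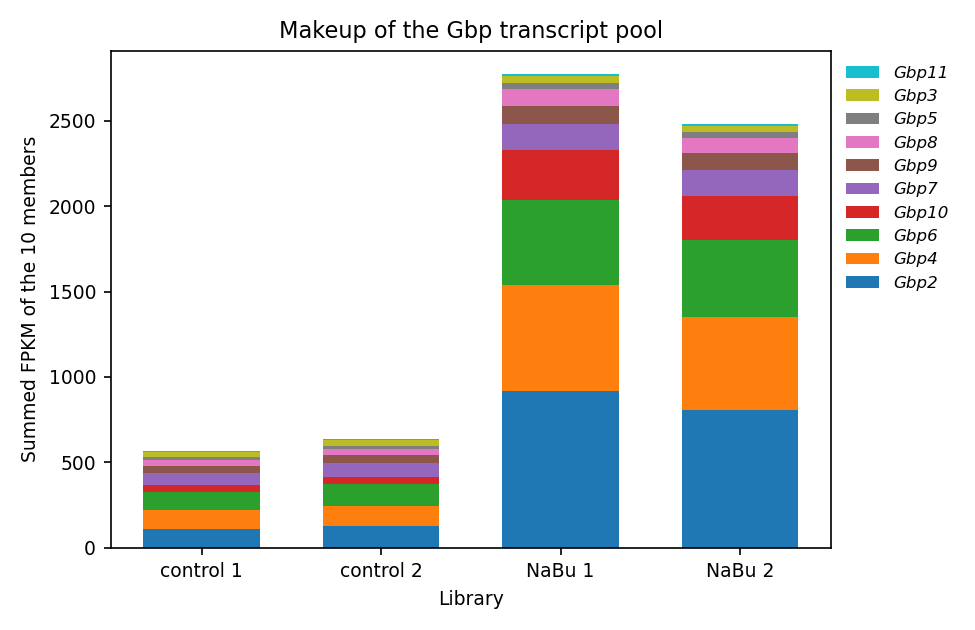
Stacked bars of the summed FPKM of the 10 members in each library, from *Gbp2* at the base to *Gbp11* at the top. The bars reach 567 and 638 in the controls and 2771 and 2478 in NaBu, where the lower 4 segments (*Gbp2*, *Gbp4*, *Gbp6* and *Gbp10*) make up 84.1% and 83.2%.

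The members also differed in one direction between the NaBu replicates. All 10 had a higher FPKM in NaBu 1 than in NaBu 2, by 1.01-fold (*Gbp7*) to 1.15-fold (*Gbp4*), whereas 51.1% of the 6213 genes averaging an FPKM of at least 10 were higher in NaBu 1. For those genes the ratio ran from 0.89 to 1.1 between its 5th and 95th percentiles, and *Gbp2*, *Gbp3*, *Gbp4*, *Gbp5*, *Gbp6* and *Gbp10* lay above that range. Between the controls, 8 members were higher in control 2, with *Gbp8* and *Gbp11* lower, and the ratios ran from 0.911 to 1.26. *Gbp3*, *Gbp6* and *Gbp7* exceeded the 95th percentile there, which was 1.17. The members are therefore not 10 independent measurements of the libraries.

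**Figure D4:**
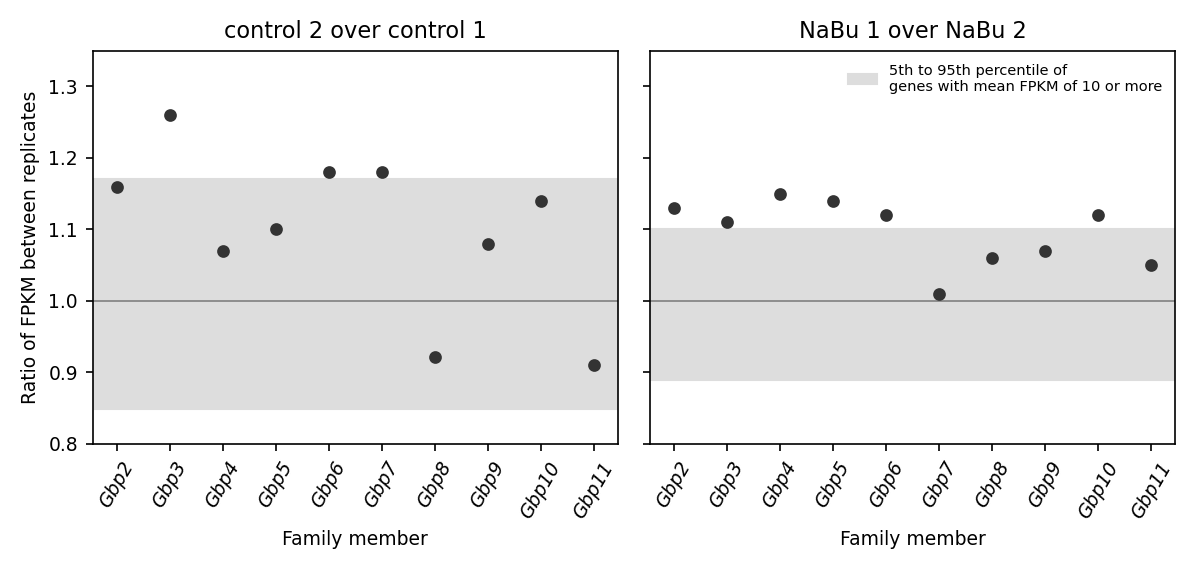
Ratio of FPKM between replicates for each member, control 2 over control 1 (left) and NaBu 1 over NaBu 2 (right). The grey band spans the 5th to 95th percentile of genes averaging an FPKM of at least 10, and 3 members lie above it in the controls and 6 in NaBu.

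The genes that carry the interferon gamma signal were examined as a list. Of 16 tested, 10 rose and 2 fell, where 34.5% of all genes were higher and 34.1% lower, and the median log2 fold change was 0.88. *Ifng* itself stood at FPKM 4.57 and 5.09 in controls 1 and 2, and at 87.9 and 78.6 in NaBu 1 and 2, a log2 fold change of 4.01 ± 0.10. Like the members, it was higher in NaBu 1 than in NaBu 2, as were 51.1% of genes averaging an FPKM of at least 10. *Irf1* had 86.3 and 84.7 against 267 and 253, a 2.85-fold rise with a log2 fold change of 1.51 ± 0.06. Its protein binds elements of the type shown above, and binding at those promoters was not measured here. *Irf8*, a related factor, rose 5.24-fold and *Socs3*, a feedback inhibitor of cytokine receptors, 5.11-fold. Of the receptor chains, *Ifngr2* rose 2.92-fold to an FPKM of 13.5 and 14.5, and *Ifngr1* stood at 134 and 131 in the controls and 138 and 131 in NaBu and did not pass (edgeR adjusted p = 0.303). The 2 genes that fell were *Jak2* and *Ptpn2*, with log2 fold changes of -0.17 and -0.32. Apart from the fit without control 1, every alternative called 1 or 0 genes of the list lower, and it was 0 without NaBu 2.

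Other interferon gamma targets were divided, with 8 of 16 tested genes higher, 7 lower and a median log2 fold change of 0.14. Among all genes 34.5% were higher and 34.1% lower. With a change of more than 1.5-fold required, 5 of the 16 were higher and 2 lower. *Ido1*, a tryptophan-degrading enzyme, rose 10.8-fold from an FPKM of 0.03 and 0.21 to 1.56 and 1.45. *Cd274*, encoding PD-L1, rose 3.59-fold. *Cxcl10*, encoding a chemokine for T cells, fell 3.33-fold and *Psmb10*, an immunoproteasome subunit, 2.95-fold. Scaled by library totals, or without either NaBu library, 4 of these targets were lower in place of 7.

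The other interferon-inducible GTPases, which act with guanylate-binding proteins on pathogen vacuoles or against viruses, had 10 of 14 tested genes higher and 2 lower. Of all genes, 34.5% were higher and 34.1% lower. The median log2 fold change of the list was 0.63. When a change of more than 1.5-fold was required, 6 of the 14 were higher and 0 lower. *Iigp1* rose 4.13-fold, *Tgtp1* 3.22-fold, *Igtp* 2.91-fold and *Tgtp2* 2.57-fold, the last a near-identical copy of *Tgtp1*. *Igtp* reached an FPKM of 916 and 874 in NaBu, close to the level of *Gbp2*. The genes that fell were *Gvin1*, a very large GTPase, by 0.52 on the log2 scale and *Mx2*, an antiviral dynamin-like protein, by 0.80.

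Of the genes best known from type I interferon responses, 12 of 22 fell, 4 rose and the median log2 change was -0.35. Among all genes 34.1% were lower and 34.5% higher. With a change of more than 1.5-fold required, 5 of the 22 were lower and 1 higher. *Oasl1*, an antiviral regulator, fell 2.92-fold, *Rtp4* 2.24-fold, *Ifit3* 2.1-fold and *Ddx58*, which encodes the RNA sensor RIG-I, 2.04-fold. *Isg15* was among the 4 that rose, at 1.65-fold. This list and the members share all 4 libraries, and whether their medians differ was not tested.

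**Figure D5:**
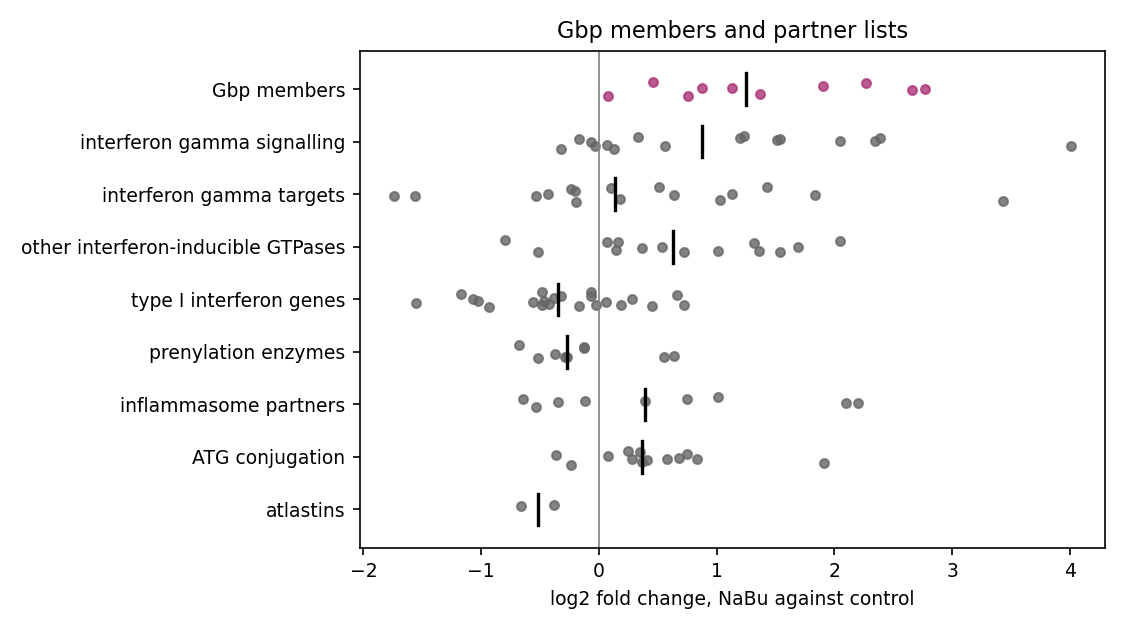
Log2 fold change of NaBu against control for each tested gene (points, spread vertically for visibility) of the family and of the partner lists, with the median of each list as a vertical bar. The median is 1.25 for the members, 0.88 for interferon gamma signalling and -0.35 for the type I interferon genes.

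Genes of the machinery that guanylate-binding proteins work with were examined too. Prenylation enzymes make and attach the lipid anchor of members such as *Gbp2*: 2 of 9 rose and 5 fell, where 34.5% of all genes were higher and 34.1% lower, and the median log2 change was -0.27. Without NaBu 2, and with DESeq2 or limma, 3 were lower, and glmTreat past 1.5-fold called 0 in either direction. *Icmt*, the methyltransferase of prenylated ends, rose 1.56-fold and *Ggps1*, which makes the geranylgeranyl donor, 1.47-fold, while *Fdps*, which makes its precursor, fell 1.6-fold and *Fntb*, a farnesyltransferase subunit, 1.44-fold. Of 9 tested inflammasome partners, 4 rose and 3 fell against the same shares of all genes, with a median of 0.39. Past 1.5-fold by glmTreat 4 of these partners were higher and 0 lower. *Nlrp3*, the sensor linked to GBP5, rose 4.58-fold but stayed low, with an FPKM of 2.21 and 2.17 in NaBu, *Il18* rose 4.3-fold and *Pycard*, the inflammasome adaptor, 2.01-fold, and *Aim2*, a DNA sensor, 1.68-fold. *Gsdmd*, the pore-forming effector, fell 1.56-fold. Of 13 genes of ATG conjugation, which is needed to bring these GTPases to vacuoles, 9 rose and 2 fell against the same shares of all genes, with a median of 0.37 and *Map1lc3a* 3.75-fold higher. Past 1.5-fold by glmTreat 3 were higher and 0 lower, and without NaBu 2, on library totals and with limma 1 was lower. *Map1lc3b*, *Gabarapl1* and *Gabarapl2* rose 1.78-fold, 1.69-fold and 1.61-fold. Atlastins, related GTPases that shape the endoplasmic reticulum, had 2 tested genes, both lower, with *Atl3* 1.58-fold and *Atl2* 1.3-fold lower. By glmTreat past 1.5-fold, 0 atlastins were lower.

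Macrophages, monocytes and dendritic cells express guanylate-binding proteins at high levels, so their markers are given beside these results. Of 19 listed markers 15 were in the files, and *Csf1r*, *Lyz2*, *C1qa* and *C1qb* were not. Of the 9 tested, 7 rose and 1 fell, where 34.5% of all genes were higher and 34.1% lower. The FPKM of the 15 summed to 159 and 175 in the controls and 220.0 in both NaBu libraries. Most of it came from *Ccr2*, which activated T cells also express and which did not pass (edgeR adjusted p = 0.456). Without *Ccr2* the sums were 23.9 and 21.1 in the controls and 59.2 and 58.5 in NaBu. The markers differed widely in level, and most of those tested rose. *Cd68* rose from a mean FPKM of 10.5 to 27.8, *Batf3* from 6.29 to 17.1, *Itgax* from 2.33 to 4.45 and *Itgam* from 0.45 to 4.31, the last 8.93-fold. *Mpeg1* rose from 0.295 to 1.91 (6.03-fold), *Cx3cr1* from 0.24 to 1.32 and *Zbtb46* from 0.105 to 0.765, and *Xcr1* fell from 2.01 to 0.8. Of the markers too low to be tested, *Adgre1* had an FPKM of 0 in both controls, 0.02 in NaBu 1 and 0 in NaBu 2, *Fcgr1* at most 0.02 and *Cd14* between 0.18 and 0.21 in all 4. The part of such cells in the change of the family was not tested.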

How the data were processed

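RNA-seq libraries of 2 control and 2 NaBu samples were grouped by their titles. The submitters' processing notes name Bowtie2 (an aligner), RSEM (a quantifier) and mm10. Not given in the sources used here: their versions, the annotation and the strand setting. The authors' expected counts, per the file headers, are estimates that divide reads between similar genes; here each was rounded to an integer for the count tests. The authors' FPKM values were used as deposited. The deposited transcript lengths, in bases, were used only to describe transcripts (another unit, neither counts nor levels). Genes listed in no row of a library were set to 0.

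Counts were tested with edgeR 4.0.16 (R 4.3.3): TMM factors, default filterByExpr (12943 genes kept), quasi-likelihood F test without covariates, Benjamini-Hochberg adjustment over all genes, threshold 0.05. SE is the absolute log2 fold change over the square root of F, and fold changes are on the TMM scale. For sums, the members' counts replaced their rows. The fit was tried on simulated counts, in which far fewer genes changed than were called here. That trial does not test the fit under so broad a change. An exact permutation of 2 against 2 libraries cannot go below p = 0.333, so none was run. Transcript stretches came from GENCODE M21, motif counts and promoters from RefSeq (GRCm38.p6). Protein features, planned at first, were not analysed here.

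The members and lists were chosen with earlier results of these data known. Named genes are all members, *Gbp2b*, up to 4 called genes per list by size of change whose higher group averages FPKM 1 or above, and *Ifng*, *Irf1*, *Ifngr1* and *Ifngr2*; some genes the rule names are not reported here. Named after their values were seen were *Jak2*, *Ptpn2*, *Gvin1*, *Mx2*, *Isg15*, *Gsdmd* and the marker genes. Alternatives changed the scaling (library totals, median-of-ratios factors), the filter (none, or at least 5 CPM in 2 libraries) or the test: limma 3.58.1 on log2(FPKM + 1), with and without a minimum of FPKM 1 in 2 libraries, or on log2(FPKM + 0.1) with it, DESeq2 1.42.0, edgeR's glmTreat against 1.5-fold, and a replicate block. Each library was also left out in turn.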

Additional observations from a re-analysis of the deposited data

How the results depend on the processing

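With each of the 14 alternatives the number of members called higher stayed between 8 and 10 and no member was called lower by edgeR, limma or DESeq2. The count was 8 under edgeR's glmTreat, where *Gbp11* dropped out, and 10 without control 2, where *Gbp3* was added. *Gbp3* changed sign without control 1 (-0.08) and without NaBu 1 (-0.0014), and was 0.25 without control 2. The log2 fold change of the summed family ran from 1.86 to 2.12, that of the chromosome 3 sum from 1.66 to 2.14 and that of the chromosome 5 sum from 1.96 to 2.14, all higher in NaBu. Leaving out 1 library gave 1.86 to 2.04 for the family. Of the interferon gamma signalling and target genes together, with 16 tested in each list, 18 were higher and 9 lower. Of all genes, 34.5% were higher and 34.1% lower. The higher count was 13 with glmTreat and 20 on library totals. The lower count was 5 on library totals, 5 with limma on log2(FPKM + 1), 5 with log2(FPKM + 0.1), 4 with log2(FPKM + 1) unfiltered and 2 with glmTreat, and between 4 and 9 when 1 library was left out. Library totals moved the median log2 fold change of all genes from 0.00471 to 0.102. *Gtf2b*, a neighbouring gene, changed sign to 0.02 on library totals and in all 3 limma fits; the cause was not tested. Over all genes, glmTreat called 3779 in place of 8884. With the replicate number as a block, 9 members were again called higher and 8853 genes were called against 8884; same-numbered libraries did not deviate together (correlation -0.0306), so the number is not taken to pair them.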

Other observations

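Protein-coding genes beside the clusters were looked at after the members' values had been seen. Of 16 such genes annotated within 500 kb of either cluster, 10 were tested, and 4 rose and 3 fell, where 34.5% of all genes were higher and 34.1% lower. On the chromosome 3 side *Pdlim5* stood at FPKM 4.56 and 4.67 in controls 1 and 2, and at 9.64 and 10.2 in NaBu 1 and 2, with a log2 fold change of 1.02 ± 0.08. *Kyat3*, the nearest coding gene beyond *Gbp2*, had 3.13 and 3.16 against 6.2 and 6.8, with 0.95 ± 0.11. *Gtf2b* and *Pkn2*, which follow it, did not pass, with log2 fold changes of -0.07 ± 0.07 and -0.12 ± 0.07. On the chromosome 5 side *Abcg3*, next to *Gbp8*, rose by 0.58 ± 0.08 on the log2 scale. Beyond *Gbp11*, *Lrrc8b* and *Lrrc8c*, which encode volume-regulated channel subunits, fell, with -0.22 ± 0.08 and -0.32 ± 0.06, and their relative *Lrrc8d* rose by 0.81 ± 0.08. *Lrrc8b* and *Zfp951*, the other gene that fell, did not pass on library totals, with limma or with DESeq2.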
